A study of Homo sapiens with 16 samples.

Results

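Adding alectinib to indisulam was examined by comparing IMR32 cells that received both drugs with cells that received indisulam alone. The comparison used 8 of the 16 libraries of the series, 4 of each treatment, and covered the 22433 genes that passed an expression filter out of 58735 in the gene table. Combination cells had 4 µM alectinib and 1.25 µM indisulam, and indisulam cells had 1.25 µM indisulam, each for 24 h. The other 8 libraries, 4 µM alectinib alone and the vehicle DMSO alone, served only to show how the same addition of alectinib acted in cells without indisulam. All groups were the 1 line IMR32, a human neuroblastoma line labelled wild type, so indisulam was shared by both groups of the main comparison. The labels number 4 libraries per treatment without stating that each had its own culture, so the p-values speak of differences among libraries that could be technical.

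Indisulam is an aryl sulfonamide that glues the RNA-binding protein RBM39 to DCAF15, the substrate adaptor of a CUL4 ubiquitin ligase, after which the proteasome destroys RBM39. RBM39 helps the spliceosome define exons, and cells that lose it skip exons and retain introns in many transcripts. Alectinib is a kinase inhibitor made against ALK, a receptor tyrosine kinase that drives a share of neuroblastomas, and it also binds other kinases. The title of the study frames alectinib as disturbing RNA splicing through such further targets, so that it would act together with degraders of RBM39. Gene counts show how much RNA each gene gave and not how that RNA was spliced.

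The 8 libraries held 55080768 to 63740239 counts each. Levels are counts per 1000000 counts (CPM) scaled by the TMM method, listed for replicates 1 to 4 in that order. Changes are log2 fold changes from 1 model over all 16 libraries. The ± after a change is an approximate standard error (SE), the size of the change divided by the square root of its F statistic. A gene was called higher or lower at a Benjamini-Hochberg adjusted p under 0.05. Of the genes named below, ASNS, BRCA1, RBM8A, SGK494 and SRPK3 overlap another gene on the same strand. Overlaps on the other strand concern AC115618.3, ARHGAP33, CCNA2, CDK2, CHEK2, CLK3, CUL4A, DDA1, DDIT3, DNAJB1, DNAJB9, FADS1, HAND2, HSF1, LIF, PDZD7, PFKM, PIDD1, PKN3, PSMC5, RAMP2, RPL22, SLC26A10, SLC7A11, SQSTM1, SRPK2, SRSF2 and TNFRSF10B. Their counts are uncertain, since how strand was counted is not given in the sources used here. Adrenergic neuroblastoma markers were all above 1 CPM, while the epithelial list summed to at most 0.956 CPM in any combination library and 0.870 CPM in any indisulam library, with KRT18 at 0. Of the blood markers, CD3E and HBB were at 0 in every library, while CD14 had 2.04, 1.27, 1.95 and 1.45 CPM in combination and 1.26, 1.08, 1.06 and 1.14 CPM in indisulam libraries, a call at the edge of the threshold (log2 0.56, adjusted p = 0.0491) that was lost without combination replicate 1 or 3 or any 1 indisulam library (adjusted p of 0.060 to 0.142). The fibroblast list summed to 131 to 151 CPM in combination and 165 to 189 CPM in indisulam libraries. The first principal component placed combination replicate 2 at 62.5 and the other combination libraries at 73.6 to 79.2, against 32.2 to 41.5 for indisulam libraries. Mitochondrial genes took 6.61 ± 0.13% of counts in combination and 6.48 ± 0.17% in indisulam libraries (SD, n = 4 each).

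Alectinib on top of indisulam was accompanied by higher levels of 4249 genes, 18.9% of those tested, and lower levels of 4502, 20.1%, which together make 39% of the genes. Changes of at least 2-fold were fewer and lay mostly on the rising side, with 1124 genes (5.01%) higher and 488 (2.18%) lower. The median log2 fold change of all tested genes was 0.01. The CPM values of the 2 groups did not overlap for 7449 genes (33.2%). With so many genes called, the counts of each gene group are to be read beside these shares. Among protein-coding genes alone, 21.3% were higher and 27.4% lower.

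**Figure D1:**
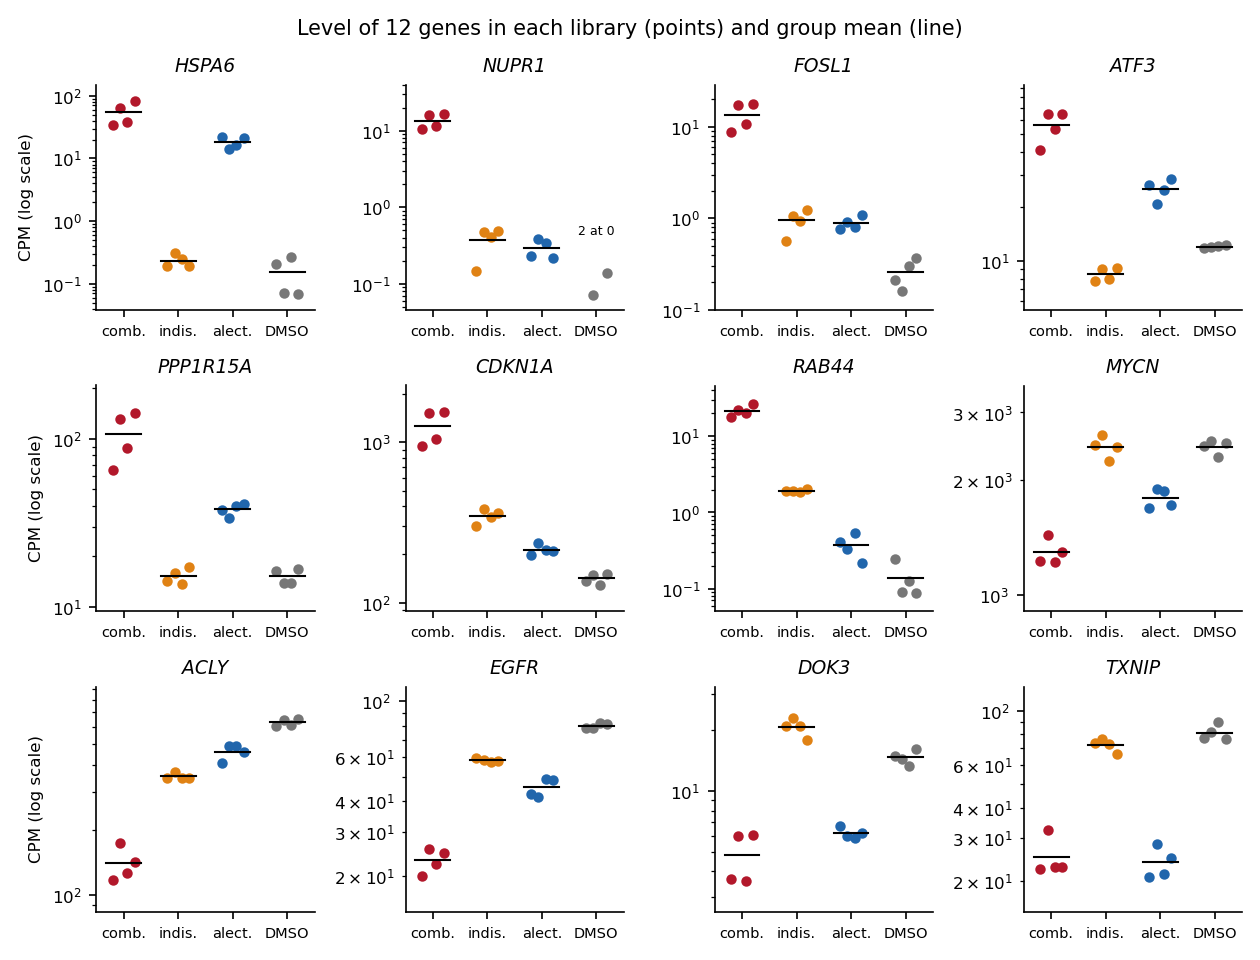
CPM (log axis) of 12 genes in the combination, indisulam, alectinib and DMSO libraries (comb., indis., alect., DMSO), with 1 point per library and a line at the mean of 4. The first 7 genes were higher and the last 5 lower in every combination library than in every indisulam library; 2 DMSO libraries of NUPR1 were at 0, are given as text and have no mean line.

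Among protein-coding genes averaging at least 5 CPM without overlap between the groups, the steepest rise was that of HSPA6. HSPA6 is an inducible HSP70 chaperone that is close to silent in unstressed cells. It stood at 34.1, 63.8, 38.1 and 81.7 CPM in combination and at 0.193, 0.306, 0.248 and 0.193 CPM in indisulam libraries. The log2 fold change was 7.85 ± 0.32 (adjusted p = 6.1e-14). The 2 groups lay far apart, and within the combination replicates 2 and 4 were the highest. That order recurred: replicates 2 and 4 held the 2 highest combination values in 11 of the 12 largest protein-coding rises, against 6432 of all 22433 tested genes (28.7%). What sets these 2 libraries apart was not tested.

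Of 24 tested members of the cytosolic heat shock list, 17 were higher and none was lower (18.9% and 20.1% of all genes), with a list median of 0.37. These genes encode chaperones and their helpers, which HSF1, the heat shock transcription factor, is known to switch on when proteins misfold. HSPA1B, another inducible HSP70, had 76.3, 124, 89.0 and 129.8 CPM in combination and 21.8, 24.8, 21.6 and 25.3 CPM in indisulam libraries, a log2 fold change of 2.16 ± 0.15 (adjusted p = 1.6e-10). Its near-identical neighbour HSPA1A had 8.29, 14.0, 8.43 and 16.7 CPM in combination and 1.64, 2.27, 2.13 and 2.21 CPM in indisulam libraries. Reads of these 2 genes cannot be split with certainty, and both sets of values were apart without overlap. DNAJB1, an HSP40 partner of HSP70, had 215, 333, 252 and 344 CPM in combination and 82.6, 102, 91.0 and 92.8 CPM in indisulam libraries (log2 fold change 1.63 ± 0.11, adjusted p = 1.1e-10).

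BAG3, which links HSP70 to autophagy of damaged proteins, had 32.1, 52.6, 35.03 and 55.1 CPM in combination and 11.2, 13.6, 12.7 and 14.4 CPM in indisulam libraries (log2 fold change 1.75 ± 0.15, adjusted p = 3.0e-09). Abundant chaperones rose by smaller steps. HSP90AA1, the inducible HSP90, had 3995, 4184, 4595 and 4056 CPM in combination and 2807, 3241, 3079 and 3512 CPM in indisulam libraries (log2 fold change 0.41 ± 0.07, adjusted p = 6.6e-05). HSPA8, the constitutive HSP70, had 2294, 2581, 2789 and 2601 CPM in combination and 1600.2, 1858, 1768 and 1837 CPM in indisulam libraries (log2 fold change 0.54 ± 0.07, adjusted p = 8.5e-07). Both genes were higher in every combination library. The small heat shock protein gene HSPB1 rose by log2 1.02 ± 0.15. Transcripts of HSF1 itself were at 70.6, 91.4, 72.8 and 91.3 CPM in combination and 75.0, 88.4, 78.7 and 75.2 CPM in indisulam libraries and were not called (log2 fold change 0.04 ± 0.09), though removal of length and GC trends gave a call at log2 0.11 (adjusted p = 0.0346). The count of members called higher stayed between 15 and 17 when any 1 of the 8 libraries was left out.

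Promoters of 4 of these chaperone genes and of PPP1R15A, a stress gene taken up in the next account, are shown because the genes rose together. They come from RefSeq on GRCh38.p14 and run from 250 bases before to 50 bases after the annotated start, 5′ to 3′ on the gene's strand. Capitals mark the 2 letter patterns of a heat shock element, GAANNTTC and TTCNNGAA, and the cAMP response element TGACGTCA, all 3 searched on both strands, where they read the same.
HSPA6, chr1:161524290-161524589, plus strand: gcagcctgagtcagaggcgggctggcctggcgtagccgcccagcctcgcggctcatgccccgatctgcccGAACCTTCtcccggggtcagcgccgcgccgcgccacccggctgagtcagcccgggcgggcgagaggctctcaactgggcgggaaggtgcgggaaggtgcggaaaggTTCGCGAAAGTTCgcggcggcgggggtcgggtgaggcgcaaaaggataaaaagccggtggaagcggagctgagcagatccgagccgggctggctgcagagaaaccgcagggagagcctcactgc
HSPA1A, chr6:31815293-31815592, plus strand: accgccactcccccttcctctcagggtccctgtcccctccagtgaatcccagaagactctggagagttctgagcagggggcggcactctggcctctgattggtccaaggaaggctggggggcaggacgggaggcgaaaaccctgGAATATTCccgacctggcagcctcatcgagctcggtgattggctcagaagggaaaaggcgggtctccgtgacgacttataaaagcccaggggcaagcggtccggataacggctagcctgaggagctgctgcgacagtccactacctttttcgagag
HSPA1B, chr6:31827488-31827787, plus strand: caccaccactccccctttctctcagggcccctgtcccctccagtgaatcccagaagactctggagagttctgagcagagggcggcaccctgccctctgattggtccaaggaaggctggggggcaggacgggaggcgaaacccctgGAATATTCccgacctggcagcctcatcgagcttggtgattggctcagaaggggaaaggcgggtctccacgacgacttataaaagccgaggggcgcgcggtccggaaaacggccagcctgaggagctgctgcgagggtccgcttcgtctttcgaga
HSPA8, chr11:123062087-123062386, minus strand: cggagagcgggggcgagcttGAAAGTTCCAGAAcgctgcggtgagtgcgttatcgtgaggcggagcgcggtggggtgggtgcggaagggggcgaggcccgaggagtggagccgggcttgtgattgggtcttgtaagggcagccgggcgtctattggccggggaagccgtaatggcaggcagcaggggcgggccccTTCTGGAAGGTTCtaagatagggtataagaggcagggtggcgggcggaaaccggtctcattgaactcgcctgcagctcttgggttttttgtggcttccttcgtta
PPP1R15A, chr19:48872171-48872470, plus strand: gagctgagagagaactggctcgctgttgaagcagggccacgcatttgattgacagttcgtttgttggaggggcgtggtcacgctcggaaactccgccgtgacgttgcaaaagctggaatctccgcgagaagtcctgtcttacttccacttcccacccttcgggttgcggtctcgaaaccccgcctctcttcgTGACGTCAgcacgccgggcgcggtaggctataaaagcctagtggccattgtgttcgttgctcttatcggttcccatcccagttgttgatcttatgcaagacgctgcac

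HSPA6 held 3 heat shock patterns, of which TTCGCGAA and GAAAGTTC overlap and begin 74 and 69 bases before the start. HSPA8 held 4, in 2 overlapping pairs that begin 230 and 225, and 55 and 50, bases before the start. HSPA1A and HSPA1B held 1 each, GAATATTC, 106 and 105 bases before the start, and their windows align with 277 identical bases, 22 mismatches and 2 gap bases. Either heat shock pattern was in 17 of the 23 heat shock list genes with a promoter in the table and in 13.5% of all 35116 promoters. PPP1R15A held TGACGTCA 58 bases before its start. These letters were in 1 of the 27 ATF4 list genes with a promoter in the table and in 1.85% of all promoters. These matches describe letters only.

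Several genes of stress signalling were among the largest rises. GDF15, a secreted cytokine of stressed cells, had 19.5, 32.01, 28.2 and 29.3 CPM in combination and 1.61, 1.59, 2.66 and 3.11 CPM in indisulam libraries (log2 fold change 3.60 ± 0.23, adjusted p = 5.3e-11). PPP1R15A, also called GADD34, which restarts translation by removing phosphate from eIF2α, had 65.4, 131, 87.6 and 142 CPM in combination and 14.2, 15.99, 13.7 and 17.2 CPM in indisulam libraries (log2 fold change 2.80 ± 0.17, adjusted p = 2.6e-11). Neither gene had overlapping values between groups, which was a condition for the largest rises. ATF3, a stress-induced transcription factor, had 41.1, 65.2, 53.5 and 65.0 CPM in combination and 7.73, 9.08, 7.995 and 9.13 CPM in indisulam libraries (log2 fold change 2.73 ± 0.12, adjusted p = 3.6e-13). NUPR1, a small stress-induced nuclear protein, had 10.4, 15.8, 11.6 and 16.3 CPM in combination and 0.145, 0.469, 0.413 and 0.483 CPM in indisulam libraries (log2 fold change 5.16 ± 0.31, adjusted p = 2.9e-11).

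Of 41 tested genes that ATF4 is known to control, 18 were higher and 8 lower, with a median of 0.05. Beside the 21.3% higher and 27.4% lower of protein-coding genes, only the higher count stood above the background. ATF4 is the transcription factor made when eIF2α is phosphorylated, and its targets cover stress signalling, amino acid uptake, amino acid synthesis and transfer RNA charging. Stress regulators and transporters were among those that rose. SESN2, a brake on the growth kinase mTORC1, had 60.7, 97.2, 73.6 and 98.1 CPM in combination and 19.7, 24.2, 21.5 and 19.9 CPM in indisulam libraries (log2 fold change 1.95 ± 0.12, adjusted p = 3.6e-11). TRIB3, a pseudokinase that restrains ATF4, had 33.1, 54.1, 37.0 and 51.9 CPM in combination and 15.9, 17.6, 15.3 and 16.6 CPM in indisulam libraries (log2 fold change 1.43 ± 0.11, adjusted p = 1.6e-09). CHAC1, which breaks down glutathione, and SLC7A11 and SLC3A2, the 2 chains of the cystine importer, rose by log2 1.54 ± 0.16, 0.99 ± 0.15 and 1.61 ± 0.14.

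DDIT3, also called CHOP, had 13.7, 18.7, 16.5 and 20.9 CPM in combination and 7.83, 11.3, 8.95 and 10.9 CPM in indisulam libraries (log2 fold change 0.84 ± 0.13, adjusted p = 1.2e-05). ATF4 itself had 459, 594, 543 and 572 CPM in combination and 388, 451, 436 and 445 CPM in indisulam libraries (log2 fold change 0.33 ± 0.07, adjusted p = 7.7e-04). Both were higher in every combination library. Among those that fell were enzymes of amino acid synthesis: PYCR1 of the proline pathway fell with a log2 fold change of -0.75 ± 0.13 and SHMT2 of the serine and glycine pathway with one of -0.43 ± 0.09. The asparagine synthetase gene ASNS was not called (log2 -0.18).

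Immediate early genes, which cells switch on within minutes of a signal without new protein, had 17 of 24 members higher and 2 lower, with a median of 0.79. FOSL1, an AP-1 subunit, had 8.81, 17.2, 10.7 and 17.7 CPM in combination and 0.564, 1.06, 0.925 and 1.24 CPM in indisulam libraries (log2 fold change 3.84 ± 0.24, adjusted p = 6.0e-11). EGR1, a zinc finger factor, had 35.1, 56.4, 33.7 and 52.1 CPM in combination and 6.04, 4.06, 4.39 and 3.99 CPM in indisulam libraries (log2 fold change 3.26 ± 0.22, adjusted p = 1.6e-10). FOS and JUN, the classical AP-1 pair, rose by log2 2.23 ± 0.24 and 0.75 ± 0.11. The members called lower were NR4A2 at log2 -0.43 and KLF10 at -0.18. Both calls were near the threshold. NR4A2 lost its call without combination replicate 1, 2 or 3 or indisulam replicate 1 or 4 (adjusted p of 0.0503 to 0.0967). KLF10 lost its call without combination replicate 1 or 3 or indisulam replicate 2 or 4 (adjusted p of 0.0574 to 0.0981).

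Feedback genes of the ERK pathway had 10 of 23 members higher and 2 lower. DUSP1, a phosphatase of ERK, p38 and JNK, had 35.5, 53.4, 37.4 and 52.5 CPM in combination and 18.8, 19.4, 16.6 and 17.3 CPM in indisulam libraries (log2 fold change 1.31 ± 0.11, adjusted p = 2.7e-09). LIF, a cytokine gene, had 13.1, 16.3, 15.4 and 17.5 CPM in combination and 4.38, 5.51, 4.48 and 5.04 CPM in indisulam libraries (log2 fold change 1.68 ± 0.14, adjusted p = 2.6e-09). VGF, a nerve growth factor-induced neuropeptide precursor, had 99.1, 163, 117 and 177 CPM in combination and 61.5, 73.6, 61.7 and 86.3 CPM in indisulam libraries (log2 fold change 0.97 ± 0.15, adjusted p = 1.4e-05). CCND1, counted in this list as a product of ERK signalling, moved the other way and is described with the cell cycle genes.

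All 34 tested targets of p53 were higher in the combination, a share that no other list with at least 5 tested members reached. p53 is a transcription factor that is stabilised by damage and stress, and its targets halt the cell cycle, repair DNA and promote cell death. The list median was 1.02, and single members lay between 0.47 for CMBL and 3.60 for GDF15.

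CDKN1A encodes p21, the inhibitor of cyclin-dependent kinases through which p53 arrests cells, and it gained the most CPM of the p53 targets. It had 945, 1528, 1052 and 1539 CPM in combination and 303, 381, 343 and 364 CPM in indisulam libraries (log2 fold change 1.86 ± 0.12, adjusted p = 6.0e-11). MDM2, the ubiquitin ligase that p53 induces and that degrades p53, had 504, 483, 509.8 and 462 CPM in combination and 207, 202, 217 and 243 CPM in indisulam libraries (log2 fold change 1.17 ± 0.07, adjusted p = 2.0e-11). Neither gene had overlapping values between groups, and MDM2 varied little within either.

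BTG2, an antiproliferative cofactor of messenger RNA decay, had 115, 168, 139 and 168 CPM in combination and 27.5, 28.5, 27.9 and 28.1 CPM in indisulam libraries (log2 fold change 2.40 ± 0.10, adjusted p = 6.1e-14). FDXR, which passes electrons to ferredoxin in mitochondria, had 60.4, 72.7, 61.4 and 89.3 CPM in combination and 18.9, 21.1, 18.5 and 19.8 CPM in indisulam libraries (log2 fold change 1.86 ± 0.10, adjusted p = 7.9e-12). GADD45A, a growth arrest and DNA damage gene, had 253, 345, 279 and 359 CPM in combination and 91.0, 104, 92.0 and 105 CPM in indisulam libraries (log2 fold change 1.66 ± 0.09, adjusted p = 1.1e-11). These 3 genes did not overlap between groups, and BTG2 was the furthest apart. TNFRSF10B, a death receptor for TRAIL, had 478, 588, 515 and 589.7 CPM in combination and 236, 262, 237 and 258 CPM in indisulam libraries (log2 fold change 1.13 ± 0.06, adjusted p = 1.6e-11). Its values were also apart in every library.

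RAB44, an atypical RAB GTPase gene, starts 10471 bases past the end of CDKN1A on the same strand. It had 18.2, 22.0, 19.97 and 26.9 CPM in combination and 1.93, 1.93, 1.83 and 2.05 CPM in indisulam libraries (log2 fold change 3.49 ± 0.17, adjusted p = 1.9e-12). The groups were far apart, with little spread in the indisulam libraries.

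Of 17 tested BCL2 family genes, 6 were higher and 3 lower, beside 21.3% and 27.4% of protein-coding genes. BBC3, the cell death activator PUMA, had 51.8, 69.7, 51.0 and 82.7 CPM in combination and 14.6, 20.1, 15.9 and 17.2 CPM in indisulam libraries (log2 fold change 1.91 ± 0.13, adjusted p = 1.9e-10). PMAIP1, the activator NOXA, had 114, 128, 122 and 109 CPM in combination and 73.8, 84.7, 75.0 and 93.9 CPM in indisulam libraries (log2 fold change 0.53 ± 0.07, adjusted p = 4.5e-06). BAX, the pore former of the mitochondrial death pathway, had 124, 165, 124 and 169 CPM in combination and 83.5, 102, 98.6 and 88.9 CPM in indisulam libraries (log2 fold change 0.64 ± 0.10, adjusted p = 1.1e-05). These 3 are also p53 targets. BCL2, which blocks that pathway, was lower at 81.4, 76.2, 74.8 and 74.7 CPM in combination and 94.5, 104, 109.7 and 115 CPM in indisulam libraries (log2 fold change -0.46 ± 0.06, adjusted p = 4.2e-06), while the related survival genes MCL1 and BCL2L1 rose by log2 0.30 ± 0.06 and 0.31 ± 0.09.

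**Figure D2:**
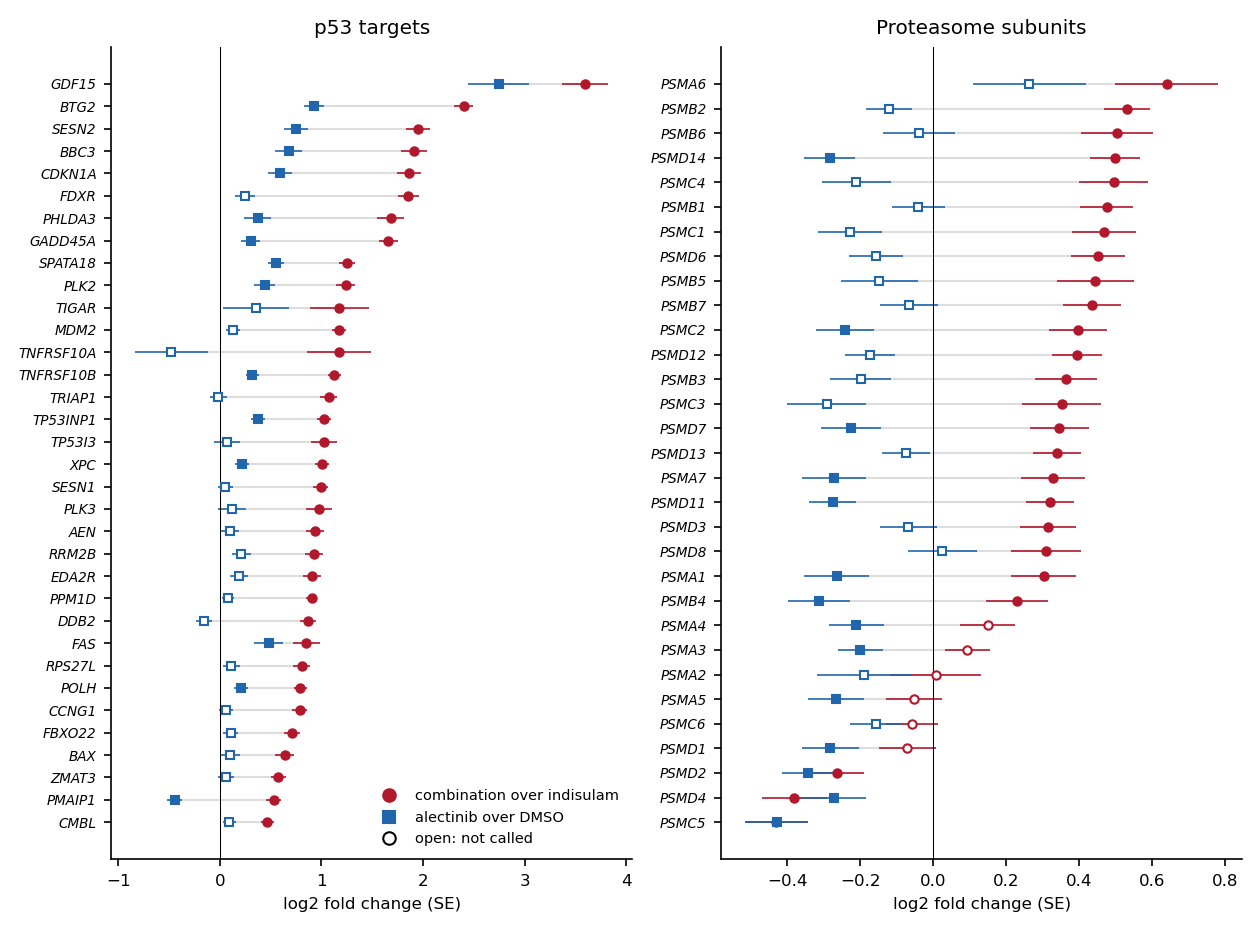
Log2 fold change (x axis, bars are SE) of each p53 target (left) and each proteasome subunit gene (right) for the combination over indisulam (circles) and for alectinib over DMSO (squares); open symbols were not called. All 34 circles on the left are filled and lie right of their squares, and 22 of 31 circles on the right are called higher where no square is.

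Genes for the ribosome and the proteasome mostly rose, by small steps. Of 77 cytosolic ribosomal protein genes, 70 were higher and none was lower, with a median of 0.37 and a range of -0.08 to 0.83. RPL4 of the large subunit had 3993, 4211, 4640.5 and 4197 CPM in combination and 3257, 3231, 3137 and 3183 CPM in indisulam libraries (log2 fold change 0.41 ± 0.06, adjusted p = 1.1e-05). RPS16 of the small subunit had 783, 859.5, 879.6 and 949.7 CPM in combination and 609, 605, 597 and 605 CPM in indisulam libraries (log2 fold change 0.52 ± 0.06, adjusted p = 1.3e-07). The steps were small, yet the groups did not overlap. RPL22 rose by log2 0.73 ± 0.06. Ribosomal protein genes share reads with many pseudogenes, so single values are uncertain.

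EEF1A1, the elongation factor that brings transfer RNAs to the ribosome, gained the most CPM of any gene called. It had 14682, 15219.6, 16669.7 and 15777 CPM in combination and 12503, 12805, 12346 and 12756 CPM in indisulam libraries (log2 fold change 0.31 ± 0.06, adjusted p = 1.3e-04). Other translation factors had no common direction, with 9 of 34 higher and 10 lower, near the 21.3% and 27.4% of protein-coding genes. EIF1 and EIF5, which set the accuracy of start codon choice, rose by log2 0.60 ± 0.05 and 0.51 ± 0.06, and EIF3B, a scaffold of the EIF3 complex, fell with a log2 fold change of -0.62 ± 0.06. Genes for assembling ribosomes went against the ribosomal proteins, with 5 of 41 higher and 19 lower. UTP20, needed to process small-subunit RNA, had 109, 98.8, 114 and 98.9 CPM in combination and 192, 198, 202 and 212 CPM in indisulam libraries (log2 fold change -0.93 ± 0.07, adjusted p = 6.2e-10), and POLR1A, the large subunit of RNA polymerase I, fell with a log2 fold change of -0.65 ± 0.06.

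The proteasome list had 22 of 31 members higher, 3 lower and a median of 0.34. PSMB2, a subunit of the catalytic core, had 296, 355, 331 and 326 CPM in combination and 220.1, 237, 214 and 234 CPM in indisulam libraries (log2 fold change 0.53 ± 0.06, adjusted p = 5.4e-07). PSMB5, which carries the site that proteasome inhibitor drugs block, had 148, 205, 169 and 219 CPM in combination and 114, 152, 135 and 144 CPM in indisulam libraries (log2 fold change 0.44 ± 0.11, adjusted p = 0.0016). The lowest combination value of PSMB5 lay below the highest indisulam value, while PSMB2 did not overlap. PSMD14, the lid enzyme that removes ubiquitin, had 186, 221, 215 and 210.0 CPM in combination and 135, 159, 138 and 157 CPM in indisulam libraries (log2 fold change 0.50 ± 0.07, adjusted p = 4.0e-06). The 3 members called lower, PSMC5, PSMD4 and PSMD2 at log2 -0.43, -0.38 and -0.26, all belong to the regulatory particle. After removal of length and GC trends the proteasome counts were 22 higher and 3 lower, and 67 ribosomal protein genes were higher.

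Nuclear genes of oxidative phosphorylation had 16 of 38 members higher and 5 lower. NDUFA9 of complex I had 67.8, 59.3, 71.2 and 57.2 CPM in combination and 42.4, 42.1, 44.8 and 42.4 CPM in indisulam libraries (log2 fold change 0.57 ± 0.09, adjusted p = 1.4e-05). ATP5MC1, a ring subunit of ATP synthase, was lower at 52.6, 70.1, 58.0 and 62.9 CPM in combination and 99.6, 114, 106 and 92.4 CPM in indisulam libraries (log2 fold change -0.76 ± 0.08, adjusted p = 2.0e-07). Of the 13 messenger RNAs made in mitochondria, 1 was higher (MT-ND3, log2 0.24 ± 0.07) and 1 lower (MT-ND5, log2 -0.28 ± 0.07). Other settings called up to 3 higher and up to 4 lower, among them MT-CO2 (log2 0.18 to 0.22) and MT-ND6 (log2 -0.36 to -0.26).

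The transcript of RBM39, the protein that indisulam removes, was higher when alectinib was added. It had 729, 723, 787 and 697 CPM in combination and 531, 529, 502 and 564 CPM in indisulam libraries (log2 fold change 0.47 ± 0.06, adjusted p = 1.5e-06). RBM23, a related protein that indisulam also targets, was at 126, 139.7, 148 and 146 CPM in combination and 127, 139, 125 and 126 CPM in indisulam libraries and was not called (log2 fold change 0.11 ± 0.06, adjusted p = 0.16). RBM23 was called at log2 0.22 (adjusted p = 0.0034) after removal of GC and length trends. It was also called at 0.16 (adjusted p = 0.0239) with a filter of at least 1 CPM in 4 libraries. Upper-quartile scaling gave a call at log2 0.15 (adjusted p = 0.0383), and leaving out combination replicate 1 gave one at 0.16 (adjusted p = 0.0458).

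Components of the DCAF15 ligase differed among themselves. DCAF15, the adaptor that binds indisulam, was at 37.6, 44.9, 37.3 and 49.2 CPM in combination and 38.4, 46.9, 42.9 and 44.6 CPM in indisulam libraries and was not called (log2 fold change -0.03 ± 0.09). The scaffold gene CUL4A was lower at 85.6, 84.2, 82.2 and 79.3 CPM in combination and 115, 116, 108 and 113 CPM in indisulam libraries (log2 fold change -0.45 ± 0.05, adjusted p = 3.4e-07), whereas CUL4B was not called (log2 -0.03 ± 0.07). DDB1, the linker, fell with a log2 fold change of -0.32 ± 0.06, and DDA1 and RBX1, small subunits, rose by log2 0.36 ± 0.08 and 0.45 ± 0.08.

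ALK, the intended target of alectinib, had 118, 126, 107 and 124 CPM in combination and 207, 195, 186 and 174 CPM in indisulam libraries (log2 fold change -0.68 ± 0.07, adjusted p = 5.4e-08). RET, another kinase that alectinib inhibits, fell with a log2 fold change of -0.54 ± 0.17 (adjusted p = 0.013), a call that was lost without indisulam replicate 1 (adjusted p = 0.0916). GAK, a kinase of clathrin uncoating, was not called (log2 0.16 ± 0.08, adjusted p = 0.10). It was called after removal of GC and length trends (log2 0.29, adjusted p = 1.2e-05) and with a filter of at least 1 CPM in 4 libraries (log2 0.21, adjusted p = 0.0272). Upper-quartile scaling (log2 0.21, adjusted p = 0.0346) and leaving out combination replicate 3 (log2 0.23, adjusted p = 0.0235) also gave a call. LTK and ROS1 had too few counts to be tested.

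Kinases of SR proteins, which control splicing by phosphorylating those factors, were split by family. SRPK1 and SRPK2 were not called, at log2 -0.08 ± 0.07 and 0.09 ± 0.07, and SRPK2 was called after removal of GC and length trends (log2 0.17, adjusted p = 0.0091). CLK3 had 165, 175, 169.9 and 184 CPM in combination and 128, 135, 132 and 125 CPM in indisulam libraries (log2 fold change 0.41 ± 0.06, adjusted p = 4.1e-06), and CLK1, CLK2 and CLK4 rose by log2 0.28 ± 0.07, 0.34 ± 0.07 and 0.29 ± 0.08. SRPK3 fell with a log2 fold change of -2.51 ± 0.33 from a low level (0.790, 1.15, 0.233 and 0.384 CPM in combination and 4.09, 3.59, 3.75 and 3.14 CPM in indisulam libraries), and its exons overlap PLXNB3. CLK3 overlaps EDC3 on the other strand, and it is not stated whether the counting used strand.

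The SR factors themselves, which bind exons and recruit the spliceosome, had 7 of 14 members higher and none lower. SRSF5 had 439, 409, 428 and 395 CPM in combination and 326, 281, 277 and 273 CPM in indisulam libraries (log2 fold change 0.53 ± 0.06, adjusted p = 1.8e-07). Its groups did not overlap. SRSF11, SRSF8 and SRSF2 rose by log2 0.44 ± 0.06, 0.44 ± 0.06 and 0.44 ± 0.07. Regulators of the hnRNP class had 5 of 25 higher and 11 lower, beside 21.3% and 27.4% of protein-coding genes. PTBP1, which represses neuronal exons, had 297, 395, 325 and 347 CPM in combination and 538, 599.7, 566 and 558 CPM in indisulam libraries (log2 fold change -0.73 ± 0.07, adjusted p = 5.0e-08). HNRNPUL2, HNRNPD and HNRNPK fell with log2 fold changes of -0.85 ± 0.07, -0.60 ± 0.05 and -0.44 ± 0.06. With length and GC trends removed, 9 hnRNP genes were higher.

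In the core spliceosome, 28 of 50 members were higher and 4 lower, with a median of 0.25. PRPF3, a protein of the U4/U6 particle, had 349, 356, 407 and 357 CPM in combination and 197, 189.7, 199.8 and 195 CPM in indisulam libraries (log2 fold change 0.91 ± 0.06, adjusted p = 4.9e-11). PRPF6, which bridges that particle to U5, had 269, 316, 301 and 333 CPM in combination and 189, 209, 186 and 189 CPM in indisulam libraries (log2 fold change 0.66 ± 0.07, adjusted p = 7.9e-08). Both genes were higher in every combination library. EFTUD2, the GTPase of U5, was lower at 153, 177, 157 and 166 CPM in combination and 263, 275, 270.1 and 269 CPM in indisulam libraries (log2 fold change -0.72 ± 0.06, adjusted p = 8.7e-10). DHX8, the helicase that releases spliced RNA, rose by log2 0.42 ± 0.06.

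Nonsense-mediated decay and exon junction genes had 7 of 16 higher and 5 lower, the latter near the 27.4% of protein-coding genes called lower. RBM8A and MAGOH, 2 core proteins of the exon junction complex, rose by log2 0.44 ± 0.07 and 0.30 ± 0.06. Transcription elongation genes had 5 of 21 higher and 6 lower, near the 21.3% and 27.4% of protein-coding genes. CCNT1, the cyclin of the elongation kinase CDK9, had 249, 253, 271 and 254 CPM in combination and 168, 165, 169.7 and 187 CPM in indisulam libraries (log2 fold change 0.57 ± 0.06, adjusted p = 2.6e-08). POLR2A, the largest subunit of RNA polymerase II, was lower at 220.2, 252, 224 and 257 CPM in combination and 302, 322, 325 and 314 CPM in indisulam libraries (log2 fold change -0.41 ± 0.06, adjusted p = 1.1e-05).

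Among falls, MYCN lost the most CPM of any gene called. MYCN is the amplified oncogene of this line and sits at the top of the neuroblastoma growth programme. It had 1226, 1435, 1221 and 1296 CPM in combination and 2468, 2614, 2242 and 2429.5 CPM in indisulam libraries (log2 fold change -0.91 ± 0.06, adjusted p = 1.6e-10). Every combination library was far below every indisulam library, and the spread within each group was small beside that gap.

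Adrenergic transcription factors, which form the regulatory circuit that holds neuroblastoma cells in a sympathetic neuroblast state, had 20 of 26 members lower and none higher, with a median of -0.52. HAND2 had 420.4, 554, 429.5 and 516 CPM in combination and 699.9, 772, 697 and 702 CPM in indisulam libraries (log2 fold change -0.58 ± 0.08, adjusted p = 3.3e-06). Every combination library lay below every indisulam library in HAND2. GATA3, a further member of the circuit, fell with a log2 fold change of -0.27 ± 0.06. KLF7 and SOX11 fell with log2 fold changes of -0.87 ± 0.06 and -0.60 ± 0.05. DESeq2 and upper-quartile scaling each called 1 member higher. The summed adrenergic marker list was at 3244 to 3844 CPM in combination and 5421 to 6029 CPM in indisulam libraries. MYCN is a member and alone averaged 1294 CPM in combination and 2437 CPM in indisulam libraries, so it weighs heavily in the sums. The members GATA2 (log2 -0.003), CHGB (-0.06) and DBH (-0.87, adjusted p = 0.084) were not called. In RNA from whole cultures, fewer cells of a type and less RNA per cell cannot be told apart.

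Products of the sympathetic lineage were also mostly lower. Of 28 catecholamine and secretory granule genes, 15 were lower and 2 higher. CHGA, chromogranin A of the granule core, had 133, 182, 124 and 173 CPM in combination and 339.6, 326, 275 and 241 CPM in indisulam libraries (log2 fold change -0.95 ± 0.11, adjusted p = 3.3e-07). MAOA, which degrades catecholamines, fell with a log2 fold change of -0.88 ± 0.09, and the galanin gene GAL with one of -0.57 ± 0.08. TH, the rate-limiting enzyme of catecholamine synthesis, fell with a log2 fold change of -0.50 ± 0.19 (adjusted p = 0.035), a call that DESeq2 did not make (adjusted p = 0.101). The call was also lost without combination replicate 3 (adjusted p = 0.0959), indisulam replicate 1 (0.118) or indisulam replicate 2 (0.078). Of 28 neurite and cytoskeleton genes, 16 were lower and 4 higher. ANK2, an adaptor of the axonal membrane skeleton, had 148, 150.2, 144 and 141 CPM in combination and 345, 326, 299 and 342 CPM in indisulam libraries (log2 fold change -1.17 ± 0.06, adjusted p = 2.2e-12). The adhesion genes L1CAM and NCAM1 fell with log2 fold changes of -0.86 ± 0.08 and -0.53 ± 0.05.

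Receptor tyrosine kinases and their ligands had 12 of 24 members lower and 3 higher. EGFR, the epidermal growth factor receptor, had 19.9, 25.7, 22.2 and 24.7 CPM in combination and 59.2, 58.4, 57.0 and 57.6 CPM in indisulam libraries (log2 fold change -1.33 ± 0.08, adjusted p = 1.7e-11). FGFR2, a receptor for fibroblast growth factors, fell with a log2 fold change of -0.96 ± 0.09. Of the 3 that rose, FGFR4 had 10.04, 11.0, 11.9 and 10.9 CPM in combination and 3.74, 4.25, 4.49 and 3.43 CPM in indisulam libraries (log2 fold change 1.46 ± 0.12, adjusted p = 3.9e-09). The other 2 were ERBB3 and AXL, both under 1 CPM in every one of the 8 libraries. Of 12 tested mesenchymal and fibroblast markers, 7 were lower and none higher, among them CD44 at log2 -1.34 ± 0.10 and PDGFRB at log2 -0.89 ± 0.12.

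Genes of proliferation were mostly lower. In the list of G1 and E2F regulators, 17 of 27 were lower and 4 higher. CCND1, the D-type cyclin, had 1131, 1259, 1178 and 1128 CPM in combination and 1832, 2051, 1961 and 1975 CPM in indisulam libraries (log2 fold change -0.74 ± 0.05, adjusted p = 3.6e-10). CDK2 and E2F1 fell with log2 fold changes of -0.84 ± 0.07 and -1.03 ± 0.12. E2F7, a repressor of E2F targets that p53 can induce, was higher at 58.9, 58.3, 59.2 and 57.1 CPM in combination and 27.8, 27.6, 22.8 and 30.8 CPM in indisulam libraries (log2 fold change 1.10 ± 0.08, adjusted p = 3.0e-10).

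DNA replication genes had 35 of 51 members lower and 2 higher, with a median of -0.35. RRM2, the regulated subunit of ribonucleotide reductase, had 22.7, 26.2, 21.3 and 21.1 CPM in combination and 47.9, 48.9, 46.0 and 48.1 CPM in indisulam libraries (log2 fold change -1.07 ± 0.07, adjusted p = 9.2e-11). All 4 combination values lay well below those of indisulam. MCM4 of the replicative helicase and POLD2 of polymerase delta fell with log2 fold changes of -0.83 ± 0.06 and -1.01 ± 0.10. Mitosis genes had 35 of 51 lower and 1 higher. MKI67, which coats mitotic chromosomes and marks cycling cells, had 612, 634, 633 and 562 CPM in combination and 1274, 1125, 1191 and 1084 CPM in indisulam libraries (log2 fold change -0.94 ± 0.06, adjusted p = 6.8e-11). Cyclin A2 (CCNA2) and the kinesins KIF11 and KIF14 fell with log2 fold changes of -0.95 ± 0.07, -0.88 ± 0.08 and -0.97 ± 0.08.

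Homologous recombination and Fanconi repair genes had 27 of 43 members lower and 1 higher. BRCA1 had 86.2, 84.7, 84.2 and 82.6 CPM in combination and 141, 136, 132 and 141 CPM in indisulam libraries (log2 fold change -0.71 ± 0.06, adjusted p = 1.5e-09). BRCA2, a mediator of homologous recombination, fell with a log2 fold change of -1.06 ± 0.10, and BRIP1 and CHEK2 with ones of -0.61 ± 0.07 and -0.68 ± 0.08.

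Fatty acid synthesis genes mostly fell, with 13 of 15 lower, none higher and a median of -0.40. ACLY, which makes cytosolic acetyl-CoA from citrate, had 118, 175, 126 and 142 CPM in combination and 348, 372, 348 and 349 CPM in indisulam libraries (log2 fold change -1.33 ± 0.09, adjusted p = 9.2e-11). SCD, which introduces the first double bond, had 466, 556, 493 and 477 CPM in combination and 813, 820.3, 779 and 749 CPM in indisulam libraries (log2 fold change -0.67 ± 0.06, adjusted p = 4.3e-09). Both were lower in every combination library. FASN, the synthase itself, fell with a log2 fold change of -0.37 ± 0.09 and the desaturase gene FADS1 with one of -0.62 ± 0.06. Cholesterol genes had 9 of 26 lower and 4 higher, beside 27.4% and 21.3% of protein-coding genes. LSS, which closes the sterol rings, fell with a log2 fold change of -0.65 ± 0.10, and SREBF2, the transcription factor of the pathway, rose at 221, 266, 226 and 254 CPM in combination and 173, 158, 162 and 135 CPM in indisulam libraries (log2 fold change 0.62 ± 0.07, adjusted p = 4.3e-07).

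Glycolysis and glucose sensing genes had 15 of 25 members lower and 3 higher. TXNIP, an inhibitor of glucose uptake, had 22.4, 32.5, 23.0 and 23.0 CPM in combination and 74.0, 76.4, 73.1 and 66.4 CPM in indisulam libraries (log2 fold change -1.52 ± 0.11, adjusted p = 2.8e-10). Its relative ARRDC4 fell with a log2 fold change of -0.96 ± 0.08, and the glycolytic enzymes PFKM and GPI with ones of -0.86 ± 0.07 and -0.72 ± 0.07. The glucose transporter gene SLC2A3 rose by log2 1.54 ± 0.32.

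Lysosome and autophagy genes had 12 of 31 members higher and 5 lower. SQSTM1, the autophagy receptor p62, had 111, 182, 122 and 206 CPM in combination and 51.1, 62.1, 55.6 and 57.5 CPM in indisulam libraries (log2 fold change 1.46 ± 0.14, adjusted p = 2.3e-08). TFE3, a transcription factor of lysosomal genes, rose by log2 0.75 ± 0.11. NRF2 targets, the antioxidant genes, had 6 of 20 higher and 3 lower, beside 21.3% and 27.4% of protein-coding genes. HMOX1, heme oxygenase, had 5.06, 9.85, 4.31 and 10.3 CPM in combination and 0.338, 0.631, 0.529 and 1.74 CPM in indisulam libraries (log2 fold change 3.18 ± 0.35, adjusted p = 2.0e-07; 3.88 without indisulam replicate 4), while GCLC, the first enzyme of glutathione synthesis, fell with a log2 fold change of -0.35 ± 0.05.

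ER chaperones and unfolded protein response genes had 12 of 24 members lower and 5 higher, in contrast to their cytosolic counterparts. CANX, the lectin chaperone calnexin, had 376, 466, 430.0 and 389 CPM in combination and 716, 741, 698 and 786 CPM in indisulam libraries (log2 fold change -0.82 ± 0.07, adjusted p = 5.1e-09). HSPA5, the ER member of the HSP70 family, was not called (log2 -0.10). ERN1, the stress sensor IRE1, had 26.8, 29.7, 31.1 and 31.6 CPM in combination and 16.9, 20.3, 19.8 and 20.4 CPM in indisulam libraries (log2 fold change 0.63 ± 0.08, adjusted p = 1.1e-06), and its downstream genes XBP1 and DNAJB9 rose by log2 0.48 ± 0.09 and 0.59 ± 0.08.

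**Figure D3:**
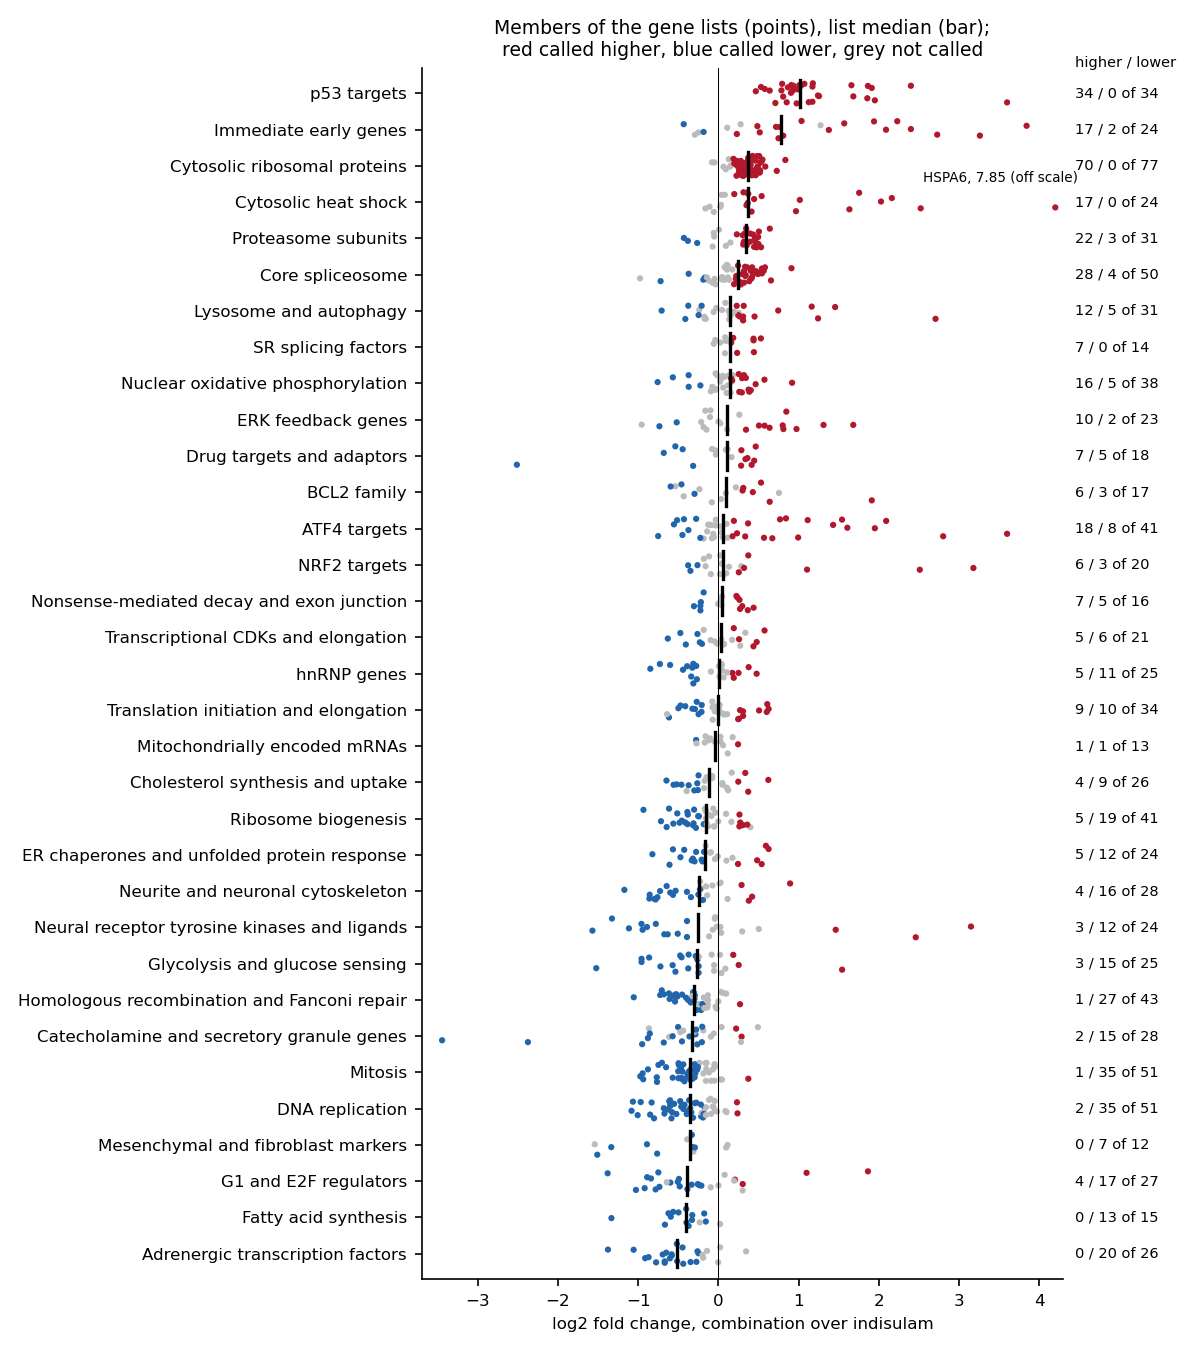
Log2 fold change of the combination over indisulam (x axis) for every tested member of the 33 lists with at least 5 tested members, ordered by median (black bar), with the numbers called higher and lower at the right. p53 targets are at the top with a median of 1.02 and adrenergic transcription factors at the bottom with -0.52.

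Outside the lists, the 12 largest protein-coding rises also held ARHGAP30, CYP4F3, NECTIN4 and CMYA5. ARHGAP30, a GTPase-activating protein gene, had 9.95, 16.9, 10.9 and 18.0 CPM in combination and 0.516, 0.306, 0.859 and 0.499 CPM in indisulam libraries (log2 fold change 4.66 ± 0.24, adjusted p = 2.2e-12). CYP4F3, which inactivates leukotriene B4, had 18.6, 20.6, 18.5 and 20.9 CPM in combination and 2.32, 2.07, 2.58 and 2.17 CPM in indisulam libraries (log2 fold change 3.10 ± 0.13, adjusted p = 7.3e-14). NECTIN4, a cell adhesion gene, had 25.7, 33.9, 28.9 and 38.8 CPM in combination and 4.43, 5.24, 4.29 and 3.56 CPM in indisulam libraries (log2 fold change 2.86 ± 0.16, adjusted p = 7.9e-12). NECTIN4 (chr1:161070995-161089599) and ARHGAP30 (chr1:161046946-161069970) lie close together on the minus strand. Whether their rises are separate was not tested. CMYA5, a muscle cytoskeleton gene, rose by log2 2.62 ± 0.16. No overlap between the groups was a condition for entering the 12 largest rises.

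Among protein-coding genes averaging at least 5 CPM without overlap between the groups, the largest falls were led by DOK3. DOK3 is an adaptor that restrains receptor signalling in immune cells. It had 3.69, 6.02, 3.58 and 6.06 CPM in combination and 20.9, 23.0, 20.8 and 17.8 CPM in indisulam libraries (log2 fold change -2.09 ± 0.14, adjusted p = 1.5e-10). RAMP2, a partner of the adrenomedullin receptor, had 3.48, 6.80, 3.76 and 3.93 CPM in combination and 16.1, 18.3, 16.7 and 18.6 CPM in indisulam libraries (log2 fold change -1.95 ± 0.15, adjusted p = 6.8e-10), and an antisense gene overlaps it. The homeobox gene DLX5 had 2.83, 3.05, 2.52 and 2.1998 CPM in combination and 12.9, 9.35, 9.70 and 8.55 CPM in indisulam libraries (log2 fold change -1.93 ± 0.14, adjusted p = 3.8e-10). The other 9 of the 12 were TXNIP, BNC2, NPTX1, TEX15, CD9, SLC38A5, CA12, PKN3 and LRRC55, with log2 fold changes from -1.87 for the zinc finger gene BNC2 to -1.52 for TXNIP. Falls in abundant transcripts included ACTG1, cytoplasmic gamma actin, at 2697, 3446, 3013 and 3237 CPM in combination and 3635, 4243, 3995 and 4180.1 CPM in indisulam libraries (log2 fold change -0.37 ± 0.07, adjusted p = 1.2e-04), and FAM84A at log2 -0.50 ± 0.09.

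Several noncoding classes had more genes higher than lower. Of 1498 long intergenic noncoding genes, 276 were higher and 93 lower, and of 2101 antisense genes 329 were higher and 125 lower, whereas of 14728 protein-coding genes 3130 were higher and 4033 lower. The intergenic share was 18.4% higher and 6.21% lower, the antisense share 15.7% higher and 5.95% lower, and the protein-coding share 21.3% higher and 27.4% lower. Of 114 small nucleolar RNA genes, 6 were higher and 10 lower, and of 145 genes of the class misc_RNA 8 were higher and 7 lower. Among genes of any type but protein-coding, averaging at least 5 CPM without overlap between the groups, AC131212.3 had the largest rise. It had 57.2, 67.7, 54.97 and 72.6 CPM in combination and 16.9, 19.5, 17.6 and 13.3 CPM in indisulam libraries (log2 fold change 1.91 ± 0.14, adjusted p = 5.9e-10). AL132780.4, HSD17B1P1 and AC115618.3 rose by log2 1.62 ± 0.13, 1.55 ± 0.11 and 1.42 ± 0.12. The largest falls by the same rule were AP001972.5, AL035587.1, AL928654.4 and LINC01797, at log2 -1.26 ± 0.14, -1.23 ± 0.10, -1.15 ± 0.14 and -1.09 ± 0.14. AP001972.5 and AL928654.4 are also labelled TEC, AL035587.1 antisense and LINC01797 long intergenic noncoding.

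Direction moved with gene length among protein-coding genes. In the quartile with the shortest exonic length, 25.8% were higher and 15.6% lower, with a median log2 fold change of 0.08. In the longest quartile 16.6% were higher and 37.5% lower, with a median of -0.11. Genomic span gave the same order, from 28.4% higher and 19.0% lower in the shortest quartile to 12.4% higher and 38.8% lower in the longest. For alectinib over DMSO the medians by exonic length were -0.07 in the shortest and -0.01 in the longest quartile. What lies behind this trend was not tested.

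**Figure D4:**
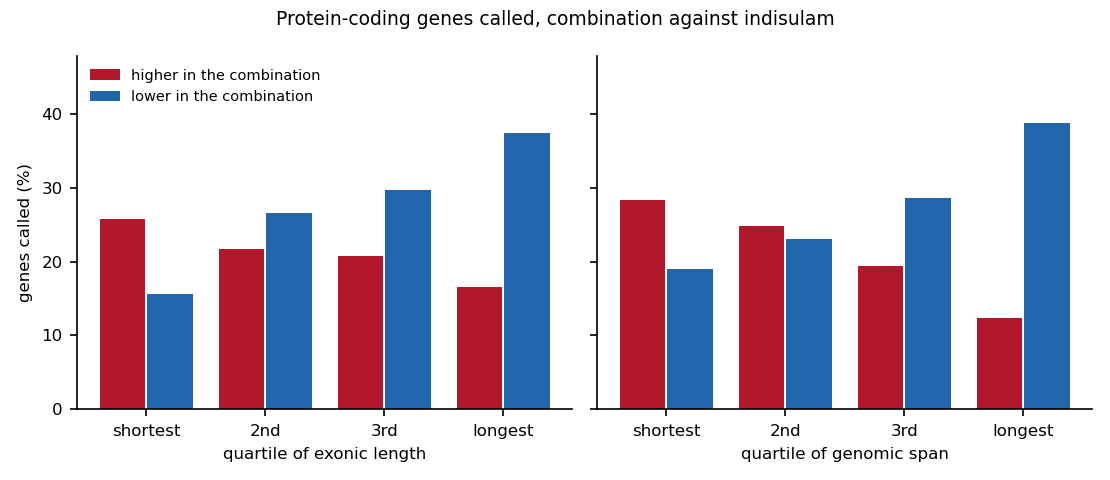
Percent of protein-coding genes called higher (red) and lower (blue) in the combination against indisulam, by quartile of exonic length (left) and of genomic span (right). From shortest to longest, the share called higher falls from 25.8% to 16.6% by exonic length and the share called lower climbs from 15.6% to 37.5%.

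The same dose of alectinib without indisulam changed fewer genes, with 2242 (9.99%) higher and 2767 (12.3%) lower than in DMSO. With upper-quartile scaling 64.0% of those calls were higher, against 44.8% with TMM. Of the 4249 genes higher with alectinib on top of indisulam, 1264 were also higher with alectinib alone over DMSO, 84 were lower and 2901 were not called. Of the 4502 lower genes, 1853 were also lower, 64 were higher and 2585 were not called. As shares of the alectinib lists, 56.4% of its higher genes and 67.0% of its lower genes were called in the same direction on top of indisulam. Across all 22433 genes Pearson's r between the 2 changes was 0.52 and Spearman's rho 0.48. The 2 comparisons share no library, and genes are not independent replicates.

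Whether alectinib did more or less in the presence of indisulam was tested as an interaction, the change over indisulam minus the change over DMSO. It was positive for 1537 genes (6.85%) and negative for 1488 (6.63%).

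The p53 targets had the largest median interaction of the 33 lists with at least 5 tested members, 0.83. Without indisulam 14 of 34 were higher and 1 lower, with a median of 0.20, and the interaction was positive for 31. MDM2 shows the difference: it had 127, 108, 106 and 115 CPM in alectinib and 101, 100.3, 113 and 102 CPM in DMSO libraries (log2 fold change 0.13 ± 0.07, adjusted p = 0.18), and its interaction was 1.04 ± 0.10 (adjusted p = 6.5e-07). PMAIP1 fell without indisulam (log2 -0.44 ± 0.07) and rose on top of it, with an interaction of 0.97 ± 0.10 (adjusted p = 4.2e-06).

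Ribosomal protein genes were mostly not called without indisulam, with 2 of 77 higher and 3 lower, and the interaction was positive for 59 and negative for none. Proteasome genes differed between the settings: none of 31 was higher and 14 were lower with alectinib over DMSO, and the interaction was positive for 22. Of these genes, 7 were called lower without indisulam and higher on top of it. PSMD14 had 86.5, 95.8, 85.1 and 90.9 CPM in alectinib and 100.5, 112, 112 and 112 CPM in DMSO libraries (log2 fold change -0.28 ± 0.07, adjusted p = 0.0043), with an interaction of 0.78 ± 0.10 (adjusted p = 2.1e-05). ER chaperones were lower for 19 of 24 members without indisulam, with a median of -0.17 on top of indisulam and -0.52 without it, and the interaction was positive for 14.

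Heat shock genes had 6 of 24 members higher and 1 lower without indisulam, and the interaction was positive for 11. HSPA6 was already high with alectinib alone, at 22.1, 14.2, 16.6 and 21.5 CPM against 0.209, 0.0719, 0.267 and 0.0696 CPM in DMSO libraries, and its interaction of 0.96 ± 0.67 was not called (adjusted p = 0.39). For fatty acid synthesis the interaction was negative for 8 of 15 genes, with ACLY at -0.89 ± 0.12 (adjusted p = 6.6e-05), and for adrenergic factors it was negative for 12 of 26. MYCN had 1688, 1897, 1869.9 and 1717 CPM in alectinib and 2455, 2521, 2298 and 2500.1 CPM in DMSO libraries, with an interaction of -0.47 ± 0.09 (adjusted p = 0.0011).

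Cell cycle genes were mostly lower in both settings, with 35 of 51 mitosis and 35 of 51 replication genes lower on top of indisulam. Without indisulam 48 of 51 mitosis and 42 of 51 replication genes were lower, and the interaction was called for 13 mitosis genes, 7 of them positive, and for 11 replication genes, 8 positive. The 8 became 2 to 9 when 1 of the 16 libraries was left out, with 2 without indisulam replicate 3 or DMSO replicate 2. TXNIP fell in both, with an interaction of 0.24 ± 0.15 that was not called (adjusted p = 0.32). RBM39 rose by log2 0.47 ± 0.06 with indisulam and by 0.42 ± 0.06 without, and its interaction of 0.04 ± 0.08 was not called.

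**Figure D5:**
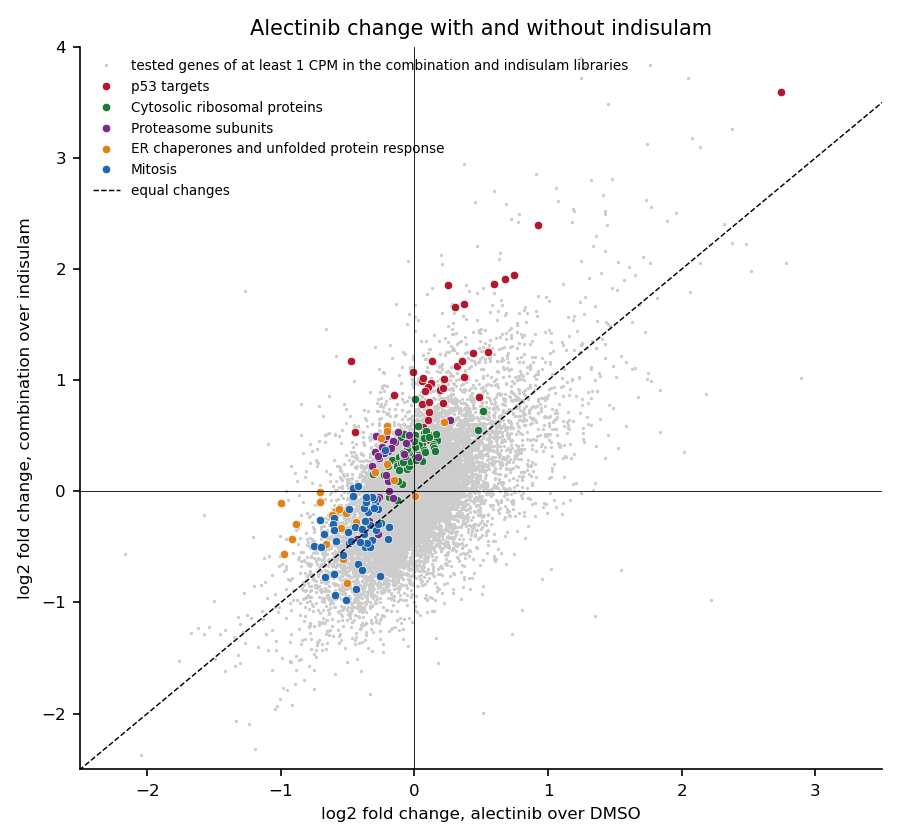
Log2 fold change of the combination over indisulam (y axis) against that of alectinib over DMSO (x axis), 1 point per gene, with members of 5 lists in colour and the line of equal changes dashed; genes beyond the axes, such as HSPA6, are not drawn. All 34 p53 targets, all 77 ribosomal protein genes and 29 of 31 proteasome genes lie above the line, as do 30 of 51 mitosis genes.

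Among protein-coding genes averaging at least 5 CPM over the 16 libraries, the largest positive interactions called belonged to RAB44, NECTIN4, ZNF750, ZNF385A, PIDD1 and ATF3. PIDD1, a p53-induced scaffold of caspase-2, had 65.2, 99.2, 71.1 and 109 CPM in combination and 25.4, 30.1, 29.3 and 22.8 CPM in indisulam libraries, and 33.1, 38.4, 41.6 and 35.9 CPM in alectinib and 42.0, 34.9, 30.1 and 41.7 CPM in DMSO libraries. Its interaction was 1.68 ± 0.19 (adjusted p = 7.1e-06), and RPLP2 overlaps it on the other strand. ZNF385A, a p53-binding zinc finger gene, had 24.9, 53.8, 32.05 and 53.7 CPM in combination and 11.7, 13.3, 12.8 and 13.3 CPM in indisulam libraries, and 14.2, 16.5, 16.8 and 13.8 CPM in alectinib and 18.6, 17.5, 13.3 and 17.9 CPM in DMSO libraries (interaction 1.82 ± 0.24, adjusted p = 4.8e-05).

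At the same level the largest negative interactions called were those of PDZD7, OVGP1, PRTG, SLC26A10, ARHGAP33 and SGK494. PRTG, a neural immunoglobulin-domain gene, had 21.0, 16.7, 20.9 and 17.6 CPM in combination and 53.1, 44.7, 43.8 and 49.8 CPM in indisulam libraries, and 23.3, 20.2, 23.4 and 24.2 CPM in alectinib and 22.5, 24, 26.6 and 23.6 CPM in DMSO libraries (interaction -1.24 ± 0.13, adjusted p = 1.7e-06). Every indisulam library exceeded every library of the other 3 groups in that gene. OVGP1, an oviduct glycoprotein gene, rose in both settings, at 33.7, 25.3, 34.4 and 29.8 CPM in combination and 16.5, 16.4, 18.6 and 15.4 CPM in indisulam libraries, and 5.71, 3.84, 3.99 and 3.79 CPM in alectinib and 1.03, 0.827, 1.03 and 0.940 CPM in DMSO libraries (interaction -1.31 ± 0.19, adjusted p = 1.5e-04).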

How the data were processed

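RNA of IMR32 cells was poly(A)-selected, made into NEBNext Ultra II libraries and read in pairs of 150 bases, per the labels' protocols. The deposited values are raw counts for each gene in each library. Reads were handled with HISAT2 2.2.1, featureCounts 2.0.1, Trimmomatic 0.39 and FastQC 0.11.9 on GRCh38, per the submitters' processing notes. How strand and multi-mapping reads were counted is not given in the sources used here, so values of overlapping genes and of near-identical copies are uncertain. Gene names were matched to GENCODE 29 by identifier, which restored 27 names that had become dates.

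Starting from these counts, genes were filtered with filterByExpr by group and libraries were scaled by TMM. The quasi-likelihood test of edgeR 4.0.16 (R 4.3.3, limma 3.58.1) used 1 mean per treatment over 16 libraries, with 12 residual degrees of freedom. Tests were two-sided, and Benjamini-Hochberg adjustment ran over the 22433 tested genes. In counts simulated for the combination against indisulam over those genes, 200 genes averaging at least 5 CPM were changed, 50 at each size. Of these, 42% changed 1.25-fold, 94% changed 1.5-fold and 100% changed 2-fold were recovered. Far fewer genes changed there than were called in the data (39%), so these shares need not hold for the data. Replicates of a group differed by more than counting error (chi-square per degree of freedom of 9.03 to 36.2), so each library counted as 1 sample. In the combination, replicates 1 and 3 (10.7) and replicates 2 and 4 (9.03) were closest, and all other pairs gave 25.1 to 36.2. What lies behind these pairs was not tested, and the model treats the 4 libraries as separate samples. Sequences are from RefSeq.

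The comparison and the 36 gene lists (998 genes, 967 of them tested) were chosen with earlier results of these data known. By rule the text names the 12 protein-coding genes and the 4 genes of any other type with the largest called rise. As many with the largest fall are named (at least 5 CPM on average, groups without overlap). The rule also takes the 4 and 4 with the largest CPM difference, all drug targets, the first 4 by p of each list, and 6 and 6 by interaction. Not all of these are printed. Further genes, among them HSPA8, HSPA1A, MDM2, ATF4, DDIT3, FOS, JUN, HAND2, TH, E2F1 and FASN, were chosen after their values were seen. Alternatives were DESeq2 1.42.0, RLE and upper-quartile scaling, other expression filters, a replicate block, the 8 libraries alone, leaving out each library and, added after the data were seen, removal of GC and length trends.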

Additional observations from a re-analysis of the deposited data

Results flagged for a closer look

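The total of alectinib replicate 1, 90.2 M counts (M being 1000000), stood far above the other 3 alectinib libraries, which held 58.4 to 60.7 M. That library enters the change over DMSO and the interaction and not the comparison of combination with indisulam.

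Among 386 groups of 4 libraries looked at, 23 had 1 library far from its group, and chance alone marks about 1 group in 20. In the combination, replicate 2 was the highest for RAMP2 (6.80 CPM, others from 3.48), TXNIP (32.5 CPM, others from 22.4), HNRNPD (241 CPM, others from 222) and CCNA2 (66.7 CPM, others from 57.0). All 4 genes fell, so replicate 2 lay nearest to the indisulam libraries in each. Combination replicate 3 was the highest for PRPF3 (407 CPM) and RPL22 (213 CPM) and the lowest for TH (27.1 CPM). Combination replicate 4 was the lowest for TEX15 (4.993 CPM) and the highest for NR4A2 (2.58 CPM).

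In the indisulam group, replicate 1 was the highest for RET (7.02 CPM) and SRSF5 (326 CPM) and the lowest for HNRNPUL2 (30.2 CPM), ERN1 (16.9 CPM) and XBP1 (105 CPM). Indisulam replicate 2 was the highest for RBM23 (139 CPM), PRPF6 (209 CPM), ACLY (372 CPM) and HAND2 (772 CPM) and the lowest for SRPK1 (128 CPM). Indisulam replicate 3 was the highest for NDUFA9 (44.8 CPM) and the lowest for CD44 (8.49 CPM), and replicate 4 was the lowest for LSS (87.1 CPM).

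The change brought by alectinib differed with and without indisulam, by the interaction test, for many named genes. Among protein-coding genes averaging at least 5 CPM over the 16 libraries, the largest positive differences were those of RAB44 (log2 2.04), NECTIN4 (1.95), ZNF750 (1.90), ZNF385A (1.82), PIDD1 (1.68) and ATF3 (1.67). The largest negative ones were those of PDZD7 (log2 -1.49), OVGP1 (-1.31), PRTG (-1.24), SLC26A10 (-1.22), ARHGAP33 (-1.16) and SGK494 (-1.16). Below that level the difference was positive for NUPR1 (2.76), a call lost without DMSO replicate 2 (2.58) or 4 (1.66), ARHGAP30 (2.51) and FOSL1 (2.08). It was also called for MDM2 (1.04), PMAIP1 (0.97), PSMD14 (0.78), ACLY (-0.89) and MYCN (-0.47). PIDD1, PDZD7, SLC26A10, ARHGAP33 and SGK494 each overlap another gene, and the counting of overlaps is not stated.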

How the results depend on the processing

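The counts of genes higher and lower in the combination stayed within 3789 to 5053 and 3842 to 4711 over all alternatives run. A filter of at least 1 CPM in 4 libraries left 534 genes at least 2-fold higher and 268 at least 2-fold lower, since fewer genes were tested. Removal of GC and length trends gave 2524 positive interactions, and the cause was not tested. The replicate block gave 4399 higher and 4711 lower genes. The labels do not state whether equal replicate numbers pair the samples. Same-numbered combination and indisulam libraries correlated at 0.05, 0.17, 0.03 and -0.02 in their deviations. Combination replicate 2 matched its own number best among indisulam libraries, as did alectinib replicates 1 and 2 among DMSO libraries, and the others did not. Deviations within groups of 4 cannot settle the pairing.

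Of 4063 recomputed values of named genes, 3997 kept their direction and side of the threshold. Many of these genes were picked for a small p or a large called change, so this share does not speak for all genes called. The 15 reversals concern values that were not called. The interaction of RBM39 ranged from -0.0049 (without DMSO replicate 3) to 0.0717 with 1 library left out. DCAF15 was at log2 0.0129 with the 1 CPM filter, 0.0070 with upper-quartile scaling, and between -0.12 and 0.0208 with 1 library left out. CUL4B was at 0.0123 and 0.0087 under the same filter and scaling, at 0.0818 with GC and length trends removed, and between -0.0718 and 0.0159 with 1 library left out. HSF1 ranged from -0.0234 to 0.10 and VWF, an endothelial gene, from -0.28 to 0.47 with 1 library left out. Small list counts moved by over 1.5 times. Removal of GC and length trends gave 9 elongation genes and 3 repair genes called higher, 4 mitochondrially encoded genes and 3 decay and exon junction genes called lower, 14 positive mitosis interactions and 8 negative replication interactions. The 1 CPM filter left 1 receptor kinase gene higher and gave 3 mitochondrially encoded genes higher. BCL2 family genes called lower numbered 5 without an expression filter or with the 8 libraries alone, and ERK feedback genes 4 with the replicate block. Positive replication interactions numbered 2 to 5 without DMSO replicate 2 or 4, alectinib replicate 1, 3 or 4, combination replicate 2, 3 or 4, or indisulam replicate 1, 3 or 4. Genes called higher numbered 3 to 9 for hnRNP genes (3 without combination or indisulam replicate 3), 2 to 7 for cholesterol genes (2 without combination replicate 2 or indisulam replicate 1, 2 or 3), 2 for neurite genes without combination replicate 2 or 4 or indisulam replicate 1, 0 for replication genes without combination replicate 3 and 1 without combination replicate 1 or indisulam replicate 2 or 3, 1 for glycolysis genes without indisulam replicate 1, 1 for adrenergic factors without indisulam replicate 3, and 1 for secretory granule genes without combination replicate 2 or 4 or indisulam replicate 1 or 3. Genes called lower numbered 1 for ERK feedback genes without indisulam replicate 1, 3 for decay and exon junction genes without indisulam replicate 2, and 1 for heat shock genes without combination replicate 3. Changes of 1.25-fold were often missed in counts simulated at this depth with 4 libraries a group. Far fewer genes changed in that simulation than were called in the data.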

Other observations

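Values of further named list members are given here. In the exon junction and decay list, CASC3, a shell protein of the exon junction complex, had 229, 247, 244 and 247 CPM in combination and 199, 199, 204 and 199.7 CPM in indisulam libraries (log2 fold change 0.27 ± 0.05, adjusted p = 2.0e-04). In the elongation list, SUPT5H, a subunit of the pausing and elongation factor DSIF, had 71.7, 95.2, 75.9 and 93.8 CPM in combination and 113, 121, 114 and 119 CPM in indisulam libraries (log2 fold change -0.47 ± 0.08, adjusted p = 5.1e-05). STMN2, a microtubule regulator of growing axons, had 142, 119, 148 and 96.5 CPM in combination and 239.5, 229, 218 and 228 CPM in indisulam libraries (log2 fold change -0.86 ± 0.11, adjusted p = 2.7e-06). These values come from the same edgeR fit. NOLC1, a nucleolar protein, had 168, 179.6, 183 and 165 CPM in combination and 286, 295, 269 and 294 CPM in indisulam libraries (log2 fold change -0.72 ± 0.05, adjusted p = 7.9e-10).

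The order of the combination libraries differed between groups of genes. Replicates 2 and 4 held the 2 highest values in 12 of the 18 ATF4 targets called higher and in 9 of the 17 heat shock genes called higher. They did so in 15 of 34 p53 targets and in 20 of 77 ribosomal protein genes, the last a share of 26.0% beside 28.7% for all tested genes.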
